A study of Mus musculus with 4 samples.

Results

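Described here are 45 mouse genes of the DNA replication machinery, taken from a list of MCM, GINS, licensing, origin recognition, polymerase, clamp, single-strand binding, ligation and nucleotide supply genes. All 45 had a probe set with 1 gene symbol, out of 18193 genes so represented on the array, and all 45 passed the filter on low signals that left 12509 genes for testing. Each gene stands for its probe set with the highest mean signal. The list was split into 10 groups by role.

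DNA replication is carried out by a machine whose parts are loaded in order. The origin recognition complex marks origins, Cdc6 and Cdt1 load the MCM helicase onto it, and Cdc45 and GINS turn that ring into an active helicase. Polymerase alpha and primase then lay primers, polymerases delta and epsilon extend them on the PCNA clamp, and flap removal and ligation join the fragments. Many of these genes are transcribed in bursts at the G1 to S boundary under E2F factors, and their mRNAs are widely used as a sign of cells entering S phase.

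RNA came from immortalized mouse embryonic fibroblasts carrying PTIP flox/flox alleles, grown in serum and selected with puromycin. In the PTIP -/- group (2 arrays) a retrovirus had brought in Cre recombinase. The PTIP +/+ group (2 arrays) carries the same floxed alleles and received the vector alone, so retroviral infection and selection are shared by both. The labels give neither the time from infection to harvest nor the number of clones or embryos behind the cells. Each genotype has an RNA numbered 1 and an RNA numbered 2, with no word on what a number stands for or on separate cultures, so a p-value measures only the spread between these RNAs, which may be technical. A difference within number 1 sets 1 PTIP -/- array against 1 PTIP +/+ array, and the same holds for number 2; neither carries a test.

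The deleted gene and the cell type were checked first. Paxip1, which encodes PTIP, read 43.5 and 74.6 on the PTIP -/- arrays, replicate 1 first as throughout, against 1029.5 and 1040.1 on the PTIP +/+ arrays. It was at least 21.6-fold lower in number 1, where the PTIP -/- signal lay under the filter level of 47.68, and 13.9-fold lower in number 2 (log2 -4.18 ± 0.36, SE, limma adjusted p = 0.999). Whether its probe sets lie in the stretch that Cre removes is unknown here. All 8 fibroblast markers were above the filter level on every array, with summed signals of 146235.8 and 126815.8 against 153814.4 and 160688.6. Markers of other cell types were read too. Below the filter level on all arrays were Cdh1 (epithelium, 1.4 to 21.7), Pecam1 (endothelium, 5.4 to 12.3) and Cd3e (T cells, 15.3 to 29.9). Above it on all arrays were Epcam (220.4 to 436.1) and Krt8 (89.3 to 182) of the epithelial list, Kdr (107 to 172) of the endothelial list, and Cd68 (73 to 112.1) and Adgre1 (75.5 to 105.6) of the blood list. Krt18, an epithelial keratin, read 85.6 and 57.4 against 17 and 20.6, with both PTIP -/- arrays higher and both PTIP +/+ arrays below the filter level. The replicate numbers differed in the fibroblast surface markers themselves: Thy1 read 14822.9 and 1500.7 with PTIP -/- against 16080.1 and 239.2 with PTIP +/+, and Pdgfra 3563.4 and 174.2 against 5010.1 and 583.2. The summed signals of the 4 epithelial genes lay between 459.9 and 705.1 in PTIP -/- and between 381.7 and 493.3 in PTIP +/+. Those of the 3 endothelial genes were 171.3 to 268.5 against 156.4 to 210.3, and those of the 4 blood genes 249.9 to 259 against 231.9 to 236.2. The actin 3′ to 5′ signal ratio, a sign of RNA quality, was 1.07 to 1.21. The part of these values in the results below was not tested.

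Replication genes read lower in the PTIP -/- cells, modestly in number 1 and more so in number 2. In the fit over all 4 arrays 43 of 45 lay below 0, where 43.9% of all genes tested did. The median log2 difference, PTIP -/- minus PTIP +/+, was -0.42, a level 1.34-fold lower, against 0.05 over all genes. With each array centred on its own median instead, all genes shifted by -0.18, so that 64.5% of them and 44 of 45 members lay below 0. Within number 1 the median was -0.20 (1.15-fold lower) and 37 of 45 genes were below 0, against 46.3% of all genes. Within number 2 it was -0.68 (1.60-fold lower) and 43 of 45 were below 0, against 45.6% of all genes. Lower within both numbers were 36 of 45 genes (25.8% of all genes), Orc4 alone was higher within both (33.9% of all genes), and 8 differed in direction between the numbers (40.2% of all genes).

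None of these differences passed the test gene by gene. With limma the adjusted p, over all 12509 genes, was 0.999 for each of the 45 members, 0 members were called and 0% of all genes were called in either direction. At an unadjusted p under 0.05 limma gave 1 of 45 members, Cdc6, and 286 of all 12509 genes, so members were no more frequent there. With 2 arrays against 2, the smallest two-sided p of an exact permutation test is 0.333. The standard errors of the members ran from 0.24 to 0.64 on the log2 scale.

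The arrays of the genotypes often did not overlap. In 28 of 45 genes both PTIP -/- arrays read below both PTIP +/+ arrays, which holds for 12.1% of all genes. Only Orc4 had both PTIP -/- arrays above both PTIP +/+ arrays, which holds for 16.6% of all genes. In the fit 12 members were at least 1.5-fold lower (6.04% of all genes) and 0 at least 1.5-fold higher (1307 of 12509 genes). Within number 2, 29 were at least 1.5-fold lower (11.2% of all genes), 9 of them at least 2-fold lower (4.86% of all genes). In number 2, 0 were at least 1.5-fold higher (16.5% of all genes). Within number 1, 1 member, Prim2, was at least 1.5-fold higher (1363 of 12509 genes), and no member was 1.5-fold lower (6.1% of all genes). Hence 0 members were 1.5-fold lower within both numbers, a mark that 2.21% of all genes met.

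**Figure D1:**
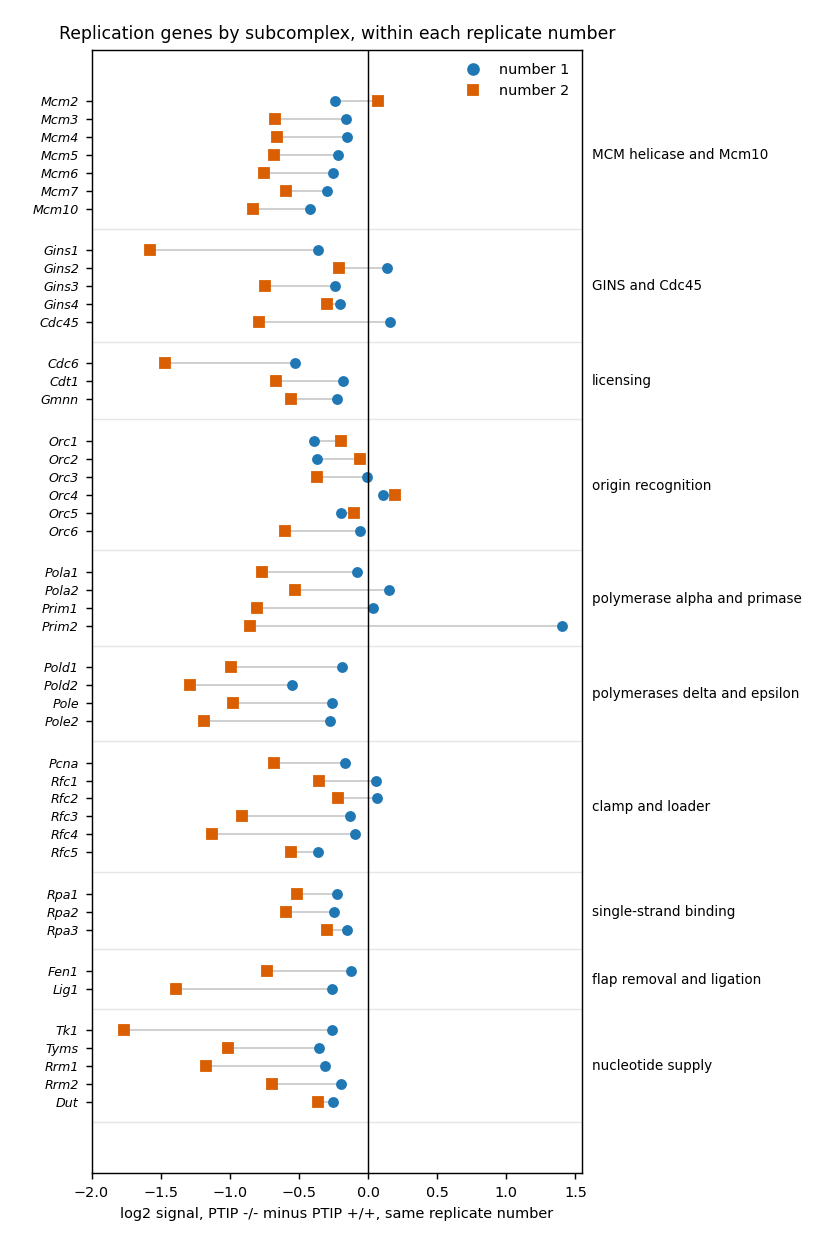
Log2 signal of PTIP -/- minus PTIP +/+ for each of the 45 replication genes, grouped by role, with a circle for number 1 and a square for number 2 (1 array against 1 array each). In number 2, 43 of 45 squares lie left of 0, and in 40 of 45 genes the square lies left of the circle.

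The members' median difference shrank most when PTIP -/- replicate 2 was left out. PTIP -/- replicate 2 read below PTIP -/- replicate 1 in 42 of 45 members, with a median log2 difference of -0.54, whereas over all genes 53.2% were below and the median was -0.04. Over all 45 members the PTIP +/+ arrays showed no such tilt, with a median of -0.01. Their replicate 2 was below replicate 1 in 24 and above it in 21 members, and 51.8% of all genes were below. It was different for the 9 members at least 2-fold lower within number 2. There PTIP +/+ replicate 2 was above replicate 1 in all but Pold2 and Tyms, by 0.04 (Rrm1) to 0.90 (Tk1) log2. That array enters the number 2 value by which these 9 were picked. In 40 of 45 members the number 2 difference was the lower one (48.2% of all genes). Without PTIP -/- replicate 2 the median of the members was -0.19 and 33 of 45 were below 0 (43.8% of all genes). Without PTIP -/- replicate 1 it was -0.66 and 44 of 45 were (46.5% of all genes). Leaving out PTIP +/+ replicate 1 gave a median of -0.36, and leaving out PTIP +/+ replicate 2 gave -0.39. The difference between the numbers cannot be tested, since a fit that lets the genotype effect differ between numbers leaves no residual degrees of freedom. In bulk RNA, fewer cells in S phase and less replication mRNA per cell cannot be told apart.

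**Figure D2:**
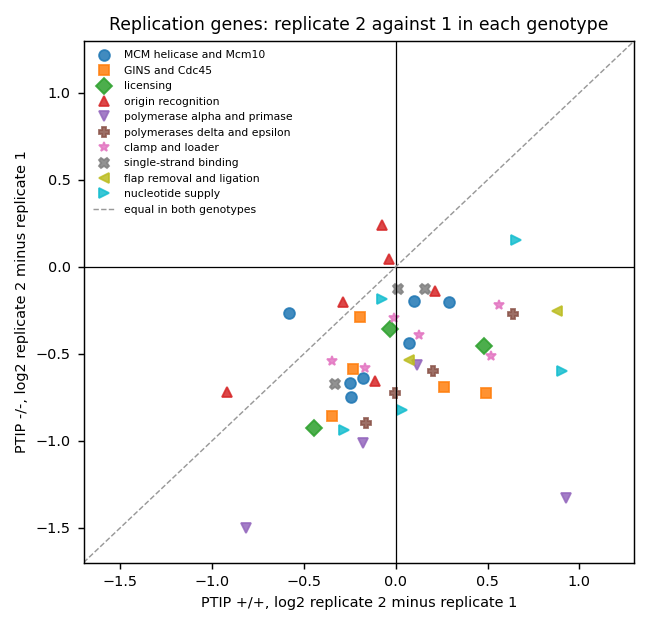
For each replication gene, the log2 difference of replicate 2 minus replicate 1 in PTIP +/+ (x axis) and in PTIP -/- (y axis), with a marker for each role. Of 45 genes, 42 lie below the horizontal line at 0, while 24 lie left and 21 right of the vertical line at 0.

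Across the 45 members, the differences within number 1 and within number 2, which share no array, had a Pearson's r of 0.19 and a Spearman's rho of 0.30; over all genes these were 0.24 and 0.25. The points share the 4 RNAs and the platform, and members are not independent replicates. Such a weak relation gives no common order of the members.

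**Figure D3:**
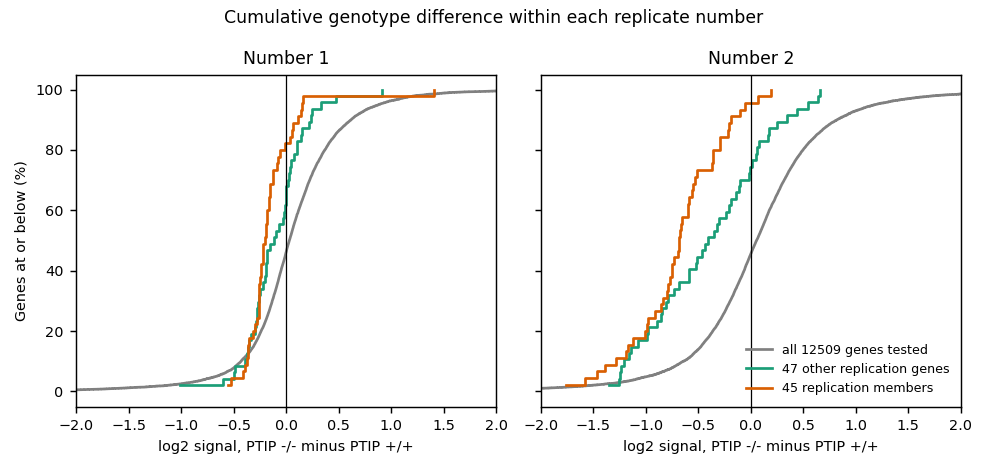
Cumulative share of genes (y axis, percent) at or below a given log2 difference of PTIP -/- minus PTIP +/+ (x axis) in number 1 (left) and number 2 (right), for all 12509 genes tested, the 47 other replication genes and the 45 members. The curve of the members lies left of that of all genes over most of the range in both panels, with medians of -0.20 and -0.68 against 0.03 and 0.05.

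Promoter windows were read to see what the members share beyond their role. RefSeq promoter windows of GRCm38.p6, from 250 bases before to 50 after a start, were at hand for 37 of 45 members; Mcm4, Gins1, Gins2, Gins4, Gmnn, Prim2, Pole and Rfc2 had none. An E2F core, searched as TTCGCGC or TTGGCGC on both strands, was found in 13 of 37 members (35.1%) and in 4.47% of the 27025 genes of the table. CCAAT, searched on both strands, was found in 23 of 37 members (62.2%) and in 41.1% of genes. The 13 members with an E2F core had a median log2 difference of -0.43 and the 24 without one -0.42, so these letters did not divide members by the size of the difference. A match is a description of letters and not a bound site. The shares were not matched for base composition.

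Shown are the 250 bases before the start of Mcm6, Mcm5 and Orc1, because among members with an E2F core before the start these had the largest difference when the smaller of the 2 within-number values is taken. E2F cores are in capitals, the sequence runs 5′ to 3′ along the gene, and where cores overlap on the 2 strands the capitals run on. Mcm6 (chr1:128359706-128359955, minus strand) holds 4 matches in 2 overlapping pairs, the first beginning 109 bases and the last 43 bases before the start. Mcm5 (chr8:75109259-75109508, plus strand) holds 3 matches, beginning 164 to 149 bases before the start. Orc1 (chr4:108579204-108579453, plus strand) holds 1, beginning 27 bases before it.
Mcm6: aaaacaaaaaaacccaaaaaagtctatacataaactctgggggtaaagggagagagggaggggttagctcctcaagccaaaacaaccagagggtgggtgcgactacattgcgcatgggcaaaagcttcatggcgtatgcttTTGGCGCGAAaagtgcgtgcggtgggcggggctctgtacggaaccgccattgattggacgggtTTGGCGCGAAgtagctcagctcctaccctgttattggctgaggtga
Mcm5: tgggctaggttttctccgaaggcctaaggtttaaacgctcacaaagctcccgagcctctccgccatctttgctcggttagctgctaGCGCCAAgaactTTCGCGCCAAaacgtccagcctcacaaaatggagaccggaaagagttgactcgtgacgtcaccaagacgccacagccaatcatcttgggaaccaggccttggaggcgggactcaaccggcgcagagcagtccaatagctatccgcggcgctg
Orc1: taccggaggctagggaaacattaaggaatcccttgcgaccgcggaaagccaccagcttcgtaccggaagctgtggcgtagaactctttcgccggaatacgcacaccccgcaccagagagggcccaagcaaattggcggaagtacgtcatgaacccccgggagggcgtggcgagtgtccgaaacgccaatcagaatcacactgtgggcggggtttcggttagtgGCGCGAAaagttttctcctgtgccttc

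The MCM proteins form the ring that unwinds DNA ahead of the fork. The median of the helicase genes Mcm2 to Mcm7 was -0.43, with -0.23 for number 1 and -0.66 for number 2. All 6 lay below 0 in the fit (43.9% of all genes). Mcm6 read 3109.3 and 2703.3 with PTIP -/- against 3716.1 and 4550.5 with PTIP +/+, with both PTIP -/- arrays lower (log2 -0.50 ± 0.27, SE, 1.42-fold lower). Mcm7 read 7710.1 and 6717.6 against 9467.3 and 10145.3, again without overlap (-0.45 ± 0.25, SE). Mcm5 read 3695.2 and 2368.2 against 4299.1 and 3797.1 (-0.45 ± 0.33, SE). For Mcm7 the 3 other probe sets gave -0.59 to -0.67, and for Mcm5 they gave -0.59 and, on a dim one, -1.09.

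Mcm3 and Mcm4 lay close to the group's median, and Mcm2 was the member of the ring nearest 0. Mcm3 read 2224.9 and 1640.3 against 2486.5 and 2611.7 without overlap (-0.42 ± 0.29, SE), and Mcm4 read 3388.9 and 2016.8 against 3763.4 and 3182.5 with overlap (-0.40 ± 0.36, SE). Mcm2 read 3080.4 and 2558.0 with PTIP -/- against 3644.4 and 2434.2 with PTIP +/+, with the groups overlapping (-0.09 ± 0.33, SE). It was 1.18-fold lower for number 1 but 1.05-fold higher for number 2. A second, separate probe set of Mcm2 gave the reverse order, 3051.8 and 1696.5 against 2690.9 and 3121.1, with a mean difference of -0.35. The 2 probe sets of Mcm2 thus disagreed on which number held its difference.

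Mcm10 helps fire the loaded helicase and ties it to polymerase alpha. It read 760.9 and 479.3 with PTIP -/- against 1015.5 and 853.6 with PTIP +/+, both PTIP -/- arrays being lower, and was 1.33-fold lower in number 1 and 1.78-fold in number 2. Its log2 means were 9.24 ± 0.47 (SD, n = 2) and 9.86 ± 0.18 (SD, n = 2), a difference of -0.62 ± 0.34 (SE). Its dimmer probe sets gave -0.69 and -0.19. The median of Mcm2 to Mcm7 and Mcm10 together was -0.45, with -0.64 when PTIP -/- replicate 1 was left out and -0.20 when PTIP -/- replicate 2 was.

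GINS and Cdc45 join the ring to make the active helicase, and Gins1 lay farthest from 0 among them. Gins1 read 458.9 and 277.1 with PTIP -/- against 589.9 and 828.8 with PTIP +/+, with no overlap. That is 1.29-fold lower for number 1 and 2.99-fold for number 2 (log2 -0.97 ± 0.39, SE). On the log2 scale its means were 8.48 ± 0.51 (SD, n = 2) and 9.45 ± 0.35 (SD, n = 2). Both genotypes enter the number 2 value: PTIP +/+ replicate 2 was 0.49 log2 above PTIP +/+ replicate 1, and PTIP -/- replicate 2 was -0.73 from PTIP -/- replicate 1.

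The other subunits were nearer 0. Gins2 read 1536.2 and 1024.3 against 1395.0 and 1187.0, overlapping, with 1.10-fold higher in number 1 and 1.16-fold lower in number 2 (-0.04 ± 0.32, SE). A second probe set of Gins2 read 900.2 and 501.6 against 1150.8 and 889.3, a mean difference of -0.59, so the 2 differ in size for this gene. Gins3 read 319.4 and 176.5 against 376.6 and 296.4 (-0.49 ± 0.40, SE) and Gins4 1397.2 and 1142.5 against 1606.3 and 1401.9 (-0.25 ± 0.27, SE), only Gins4 without overlap. Cdc45 read 683.8 and 424.1 against 611.1 and 733.4, slightly higher in number 1 (0.16) and lower in number 2 (-0.79). The 5 genes had a median of -0.31, which was -0.66 without PTIP -/- replicate 1 and -0.065 without PTIP -/- replicate 2.

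**Figure D4:**
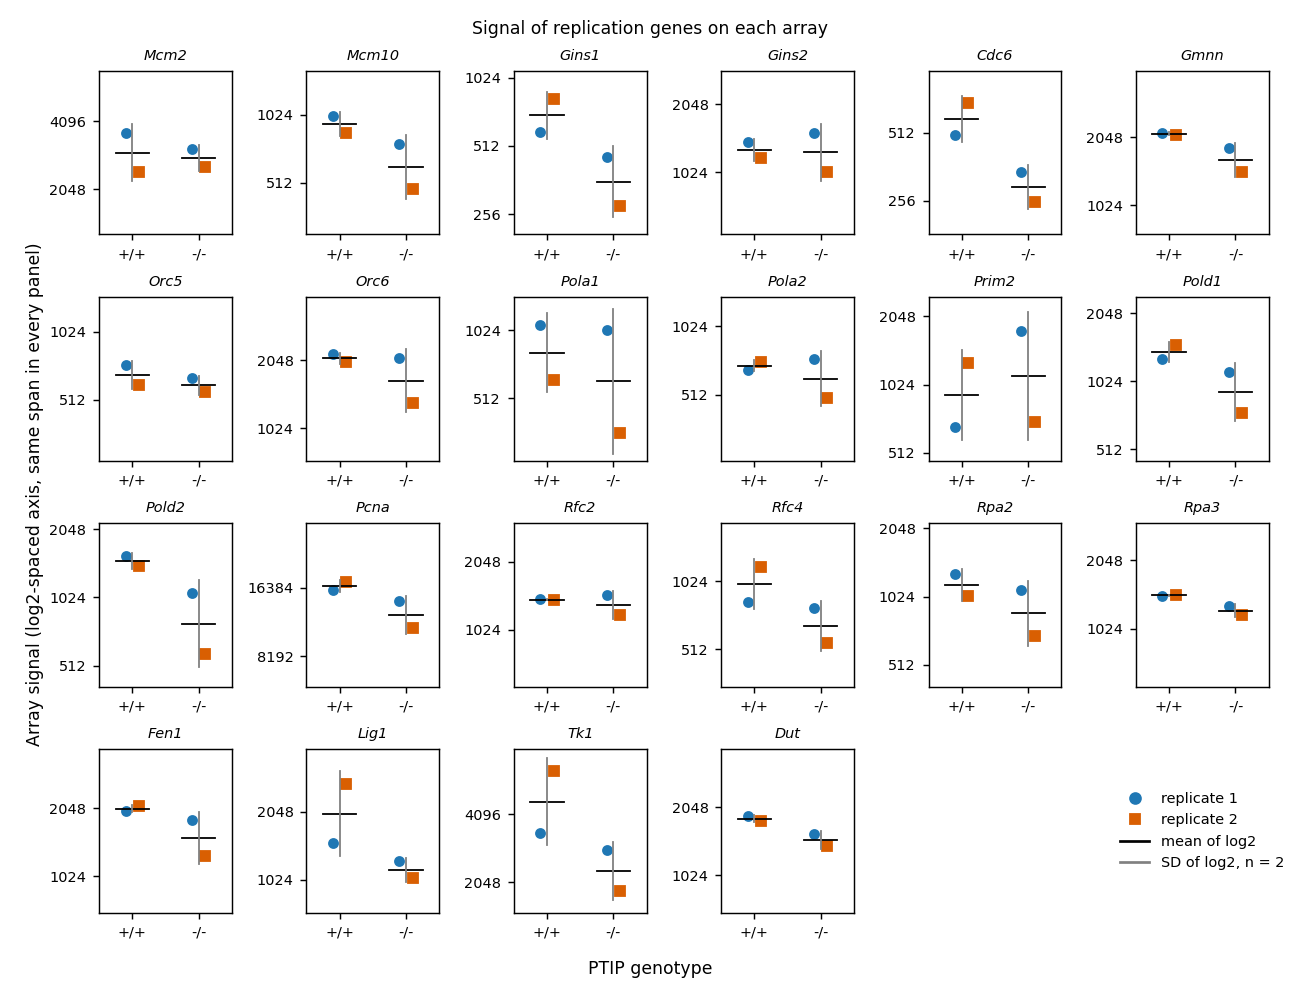
Array signal of 22 replication genes, those with the largest and smallest difference in each role plus Prim2 and Pcna, on a log2-spaced axis with the same span in every panel; circles are replicate 1, squares replicate 2, the black bar the mean of log2 and the grey line its SD (n = 2). PTIP -/- replicate 2 is the lowest of the 4 arrays in genes such as Cdc6, Pold2, Tk1 and Gins1, while Mcm2, Gins2, Orc5 and Rfc2 overlap between the genotypes.

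Licensing genes gave the member with the smallest p in limma without the replicate number as a block. Cdc6, the ATPase that loads MCM with Cdt1, read 344.8 and 251.8 with PTIP -/- against 498.0 and 696.3 with PTIP +/+. Both PTIP -/- arrays were lower than both PTIP +/+ arrays, by 1.44-fold in number 1 and 2.77-fold in number 2, or 2.00-fold in the fit. Mean log2 levels were 8.20 ± 0.32 (SD, n = 2) and 9.20 ± 0.34 (SD, n = 2), a difference of -0.999 ± 0.33 (SE) with adjusted p = 0.999 in limma. Cdc6 has a single probe set here, so no second reading was at hand.

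Cdt1, the partner of Cdc6, and Gmnn, the Cdt1 inhibitor geminin, were lower by similar amounts in the fit over all 4 arrays. Cdt1 read 3680.0 and 1936.0 against 4175.6 and 3069.3 (-0.42 ± 0.43, SE), overlapping because PTIP -/- replicate 1 lay above PTIP +/+ replicate 2. A second probe set gave -0.49. Gmnn read 1833.3 and 1429.8 against 2141.9 and 2099.6 without overlap (-0.39 ± 0.27, SE). Without PTIP -/- replicate 2 the fitted difference was 0.040 for Cdt1 and -0.21 for Gmnn.

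Origin recognition genes lay closest to 0 of the 10 groups in the fit, with a median of -0.20 in the fit, -0.12 for number 1 and -0.15 for number 2. Leaving out PTIP -/- replicate 2 brought the median to -0.025, and leaving out PTIP +/+ replicate 1 to -0.090. The number 2 difference was the lower one in only 2 of 6 genes (48.2% of all genes). Orc6, the small subunit, was farthest: it read 2088.1 and 1322.4 against 2171.9 and 2008.9 (-0.33 ± 0.33, SE), and the groups overlapped. Orc5 read 636.4 and 554.0 against 727.3 and 595.6 (-0.15 ± 0.27, SE), also overlapping.

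Orc1, the subunit whose supply follows the cell cycle, tracked the replicate number more than the genotype. It read 292.1 and 177.4 with PTIP -/- against 382.9 and 202.8 with PTIP +/+ (-0.29 ± 0.47, SE), and a second probe set gave 0.17, on the other side of 0. Orc2 and Orc3, subunits of the core complex, differed by -0.21 ± 0.26 (SE) and -0.19 ± 0.26 (SE). Orc4 read 1511.3 and 1561.4 against 1399.8 and 1366.0, 1.11-fold higher (0.15 ± 0.24, SE). Its other probe sets above the filter gave -0.02 and -0.12, so no direction can be given for it. Median centring, which shifts every gene alike by -0.18, put Orc4 at -0.03. Whether the origin recognition genes differ from the rest was not tested.

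Polymerase alpha and primase start each strand, and here the numbers parted in direction. Within number 1 only 1 of 4 genes was below 0 (46.3% of all genes), with a median of 0.09. Within number 2 all 4 were on their chosen probe sets (45.6% of all genes), with a median of -0.78. The fitted median of -0.29 crossed 0 without PTIP -/- replicate 2 (0.23) and with all probe sets of a gene averaged (0.054), and was -0.68 without PTIP -/- replicate 1. Prim2, the large primase subunit, read 1768.4 and 703.1 with PTIP -/- against 668.4 and 1269.6 with PTIP +/+. That is 2.65-fold higher in number 1 and 1.81-fold lower in number 2, the only member that passed 1.5-fold in opposite directions, for a fitted value of 0.28 ± 0.61 (SE). Its second probe set read 962.5 and 717.0 against 792.5 and 1004.2, with the same reversal at a smaller size and a mean of -0.10. The sign for Prim2 therefore depends on the probe set.

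Pola1, the catalytic subunit, had the largest SE of the 45 in the fit without a block. It read 1024.2 and 361.3 with PTIP -/- against 1083.1 and 614.5 with PTIP +/+, low in both replicates 2 and lowest in PTIP -/- (-0.42 ± 0.64, SE). With the replicate number as a block its SE was 0.27, and Prim2 had the largest, 0.63. Pola2, its accessory subunit, read 731.8 and 494.6 against 658.7 and 713.0 (-0.19 ± 0.31, SE). Prim1, the catalytic primase subunit, read 2644.1 and 1308.1 against 2585.3 and 2281.9 (-0.39 ± 0.43, SE). On the chosen probe sets of these 3 genes PTIP -/- replicate 1 was close to or above PTIP +/+ replicate 1. There PTIP -/- replicate 2 was the lowest array. A second probe set of Prim1 went the other way, with 1358.2 and 823.2 against 1772.4 and 675.1. It was lower in number 1 (-0.38) and higher in number 2 (0.29). A dim second probe set of Pola2 was higher in both numbers (0.05 and 0.49).

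Polymerases delta and epsilon copy the lagging and leading strands. All 4 of their subunits on the list were at least 1.5-fold lower in the fit (6.04% of all genes). In all 4 both PTIP -/- arrays were below both PTIP +/+ arrays (12.1% of all genes). Pold2, the delta accessory subunit, read 1070.1 and 574.4 with PTIP -/- against 1566.9 and 1403.3 with PTIP +/+. It was 1.46-fold lower for number 1 and 2.44-fold for number 2, with mean log2 signals of 9.61 ± 0.63 (SD, n = 2) and 10.53 ± 0.11 (SD, n = 2) (difference -0.92 ± 0.40, SE). Pold1, the delta catalytic subunit, read 1129.2 and 744.5 against 1284.8 and 1481.5 (-0.59 ± 0.33, SE), and its second probe set gave -0.71.

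The epsilon genes followed. Pole, the catalytic subunit, read 1177.5 and 713.5 against 1412.7 and 1406.9 (-0.62 ± 0.35, SE). Pole2, the subunit that links epsilon to the helicase, read 702.7 and 581.8 against 851.6 and 1326.6 (-0.73 ± 0.34, SE). A second probe set of Pole2, below the filter level, gave 0.85 and carries no readable level. Over the 4 genes the median was -0.68 (-0.27 for number 1, -1.09 for number 2), and it was -0.38 without PTIP -/- replicate 2.

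PCNA is the sliding clamp and replication factor C its loader. Pcna read 14286.4 and 10888.8 with PTIP -/- against 15998.3 and 17462.2 with PTIP +/+, both PTIP -/- arrays lower, at 1.12-fold in number 1 and 1.60-fold in number 2 (-0.42 ± 0.28, SE). Its value was the median of the 45. Rfc4 read 776.9 and 544.1 against 828.3 and 1188.0, nearly level in number 1 (1.07-fold lower) and 2.18-fold lower in number 2 (-0.61 ± 0.35, SE), with -0.78 on its second probe set.

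The other loader subunits spread between Rfc4 and 0. Rfc3 read 496.0 and 426.5 against 543.0 and 802.4 (-0.52 ± 0.32, SE), and Rfc5 1305.7 and 897.0 against 1678.7 and 1319.9 (-0.46 ± 0.33, SE). Both were lower without overlap on their chosen probe sets (12.1% of all genes). Rfc1, the large subunit, differed by -0.15 ± 0.32 (SE), with -0.30 and 0.02 on other probe sets. Rfc2 read 1459.3 and 1192.3 against 1394.0 and 1384.7 (-0.07 ± 0.26, SE), overlapping, and its dimmer probe sets gave -0.53 and 0.53. No direction can be given for Rfc1 or Rfc2.

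RPA coats the single strands that the helicase exposes. All 3 subunits were below 0 within both numbers (25.8% of all genes), with a median of -0.37, or -0.16 without PTIP -/- replicate 2. Rpa2 read 1089.7 and 683.8 against 1295.1 and 1030.4 (-0.42 ± 0.35, SE) and overlapped. Rpa1, the large subunit, read 7500.3 and 6867.8 against 8767.3 and 9794.9 (-0.37 ± 0.25, SE). Rpa3, the small one, read 1286.6 and 1176.4 against 1433.4 and 1444.4 (-0.23 ± 0.24, SE). Rpa1 and Rpa3 were lower without overlap (12.1% of all genes).

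Flap removal and ligation finish the lagging strand. Lig1, the replicative ligase, read 1237.4 and 1037.8 with PTIP -/- against 1481.6 and 2722.1 with PTIP +/+, 1.20-fold lower in number 1 and 2.62-fold in number 2 (-0.83 ± 0.40, SE). PTIP +/+ replicate 2 was the high array, 0.88 log2 above PTIP +/+ replicate 1, and without it the fitted difference was -0.39. Fen1, the flap endonuclease, read 1820.9 and 1256.3 against 1983.8 and 2088.3 (-0.43 ± 0.30, SE), with -0.12 on its second probe set. Both genes were lower without overlap on their chosen probe sets (12.1% of all genes). The second probe set of Fen1 read 1597.6 and 1145 against 1514.7 and 1427.1, with overlap.

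On their chosen probe sets, 5 of 5 nucleotide supply genes were lower within both numbers (25.8% of all genes), around a median of -0.68. The same 5 were lower without overlap (12.1% of all genes). Leaving out PTIP -/- replicate 2 gave -0.33 and leaving out PTIP -/- replicate 1 gave -1.15, while averaging all probe sets of a gene gave -0.38. Tk1, the S phase thymidine kinase, had the largest difference of the 45. It read 2830.4 and 1869.7 with PTIP -/- against 3391.8 and 6344.0 with PTIP +/+, 1.20-fold lower in number 1 and 3.39-fold in number 2. Mean log2 signals were 11.17 ± 0.42 (SD, n = 2) and 12.18 ± 0.64 (SD, n = 2). As for Lig1, PTIP +/+ replicate 2 was high, 0.90 log2 above PTIP +/+ replicate 1, and the fitted difference of -1.01 ± 0.45 (SE) became -0.56 without that array.

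The ribonucleotide reductase genes make the deoxynucleotides. Rrm1, the large subunit, read 5779.3 and 3263.7 against 7181.8 and 7367.6 (-0.74 ± 0.37, SE), and -0.70 on a second probe set. Rrm2, the S phase small subunit, read 9060.9 and 10069.6 against 10371.7 and 16316.3 (-0.45 ± 0.33, SE), with means of -0.46 and -0.36 on others. The probe set with -0.46 read 4324.9 and 4673.8 against 3977.8 and 9681.5, overlapping and higher in number 1 (0.12). As for Tk1, PTIP +/+ replicate 2 was the high array, and without it the fitted difference of Rrm2 was -0.12. Rrm2 was 1 of 3 members in which PTIP -/- replicate 2 did not read below replicate 1, the others being Orc2 and Orc4.

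Dut, which clears dUTP, read 1566.7 and 1380.5 against 1870.7 and 1774.2 (-0.31 ± 0.25, SE), 1.19-fold lower in number 1 and 1.29-fold in number 2, among the members most alike in both. A dimmer second probe set gave 0.10. Tyms, thymidylate synthase, is hard to read here. Its brightest probe set with 1 symbol read only 92.2 and 48.1 against 117.8 and 96.9 (-0.68 ± 0.42, SE). A second one above the filter level, nearly as dim, read 88.4 and 55.9 against 74.2 and 70.2, with overlap, higher in number 1 (0.25) and lower in number 2 (-0.33), for a mean of -0.04. A far brighter probe set that the annotation shares between Tyms and the pseudogene Tyms-ps read 2155.3 and 1023.7 against 1991.4 and 2150.6, low in PTIP -/- replicate 2 alone.

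Probe sets gave a second look at most members. Of 45 genes, 33 had more than 1 probe set, with 54 further probe sets, of which 42 were above the filter level. Among those 42, 36 were below 0 in the mean of both numbers and 33 had the sign of the chosen probe set. The 9 of opposite sign belonged to Mcm3, Orc1, Orc4, Pola2, Prim2, Rfc1, Rfc2 and Dut, with Orc4 counted on both of its probe sets. Within number 1 alone, more genes had probe sets on both sides of 0. For Mcm2, Mcm3, Mcm10, Orc1, Orc2, Orc3, Rfc3, Fen1, Tyms, Rrm2 and Dut the chosen probe set lay below 0 there. A further probe set of each, above the filter level, lay above 0. The reverse held for Gins2, Orc4, Prim1, Rfc1 and Rfc2. Within number 2 the chosen probe set lay below 0 and a further one above 0 for Orc1, Orc2, Pola2, Prim1, Rfc2 and Dut. There the reverse held for Mcm2 and Orc4, again with further probe sets above the filter level. Probe sets of a gene share the same RNA and are not replicates.

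Genes of the pathway outside the list were taken from a second list of 49, of which 47 were measured and tested. In the fit 37 of 47 were below 0 (43.9% of all genes), around a median of -0.21 (-0.12 for number 1, -0.41 for number 2). Lower within both numbers were 27 (25.8% of all genes) and higher within both were 7 (33.9% of all genes). None passed limma's test in either direction, as for all genes. At an unadjusted p under 0.05 limma gave 1 of the 47, E2f8, and 286 of all 12509 genes. Without PTIP -/- replicate 2, 25 of 47 were below 0 (43.8% of all genes). Values of single genes varied: Tipin, which protects the fork, differed by -0.65 ± 0.32 (SE) and Chaf1b, a histone loader, by -0.63 ± 0.30 (SE). Timeless, the partner of Tipin, differed by -0.67 ± 0.37 (SE), with -0.10 within number 1 and -1.24 within number 2. Near 0 lay Dbf4, the activator of the Cdc7 kinase (-0.12 ± 0.27, SE), Rif1, a regulator of origin timing (-0.09 ± 0.44, SE), and Donson, a helicase assembly factor (0.01 ± 0.38, SE). Top2a, the topoisomerase that untangles sister DNA, read 4548.6 and 3144.7 against 5442.4 and 7286.6, and Dscc1, part of an alternative clamp loader, 142.0 and 173.6 against 184.1 and 413.9. Their fitted differences were -0.74 ± 0.34 (SE) and -0.81 ± 0.48 (SE).

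E2F and pocket protein genes (10 on the list) were 7 lower and 3 higher in the fit, where 43.9% of all genes were lower. The activator genes E2f1 and E2f3 lay near 0, at -0.04 ± 0.29 (SE) and -0.01 ± 0.28 (SE). E2f2, below the filter level on 2 arrays, differed by 0.91 in number 1 and -1.14 in number 2. E2f8, an atypical E2F that represses S phase genes, read 472.5 and 380.9 with PTIP -/- against 949.9 and 972.8 with PTIP +/+. It was 2.01-fold lower in number 1 and 2.55-fold in number 2 (-1.18 ± 0.26, SE, limma adjusted p = 0.999), with -1.82 on a dim second probe set. No other gene of either list was at least 1.5-fold lower within both numbers, a mark that 2.21% of all genes met. E2f7, also an atypical E2F, read 2469.1 and 1115.2 against 2811.8 and 1932.3, with overlap (-0.49 ± 0.50, SE). Its difference was -0.19 in number 1 and -0.79 in number 2. Rbl1, the pocket protein p107, read 881.0 and 572.0 against 1239.0 and 1277.4 (-0.83 ± 0.32, SE). Its relatives Rb1 and Rbl2 differed by 0.15 ± 0.67 (SE) and 0.41 ± 0.51 (SE) and followed the replicate number.

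Rrm2b, the small reductase subunit used outside S phase and known as a p53 target, lay on the other side. It read 444.3 and 537.1 with PTIP -/- against 353.1 and 340.7 with PTIP +/+, 1.26-fold higher in number 1 and 1.58-fold in number 2 (0.49 ± 0.26, SE). A second probe set read 243.5 and 223.5 against 130.8 and 166.1 (0.66). Rrm2b was the only one of the 47 with both PTIP -/- arrays above both PTIP +/+ arrays (16.6% of all genes). Both PTIP -/- arrays were below both PTIP +/+ arrays in 17 of the 47 (12.1% of all genes). Rrm2, the S phase counterpart of Rrm2b, read lower.

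**Figure D5:**
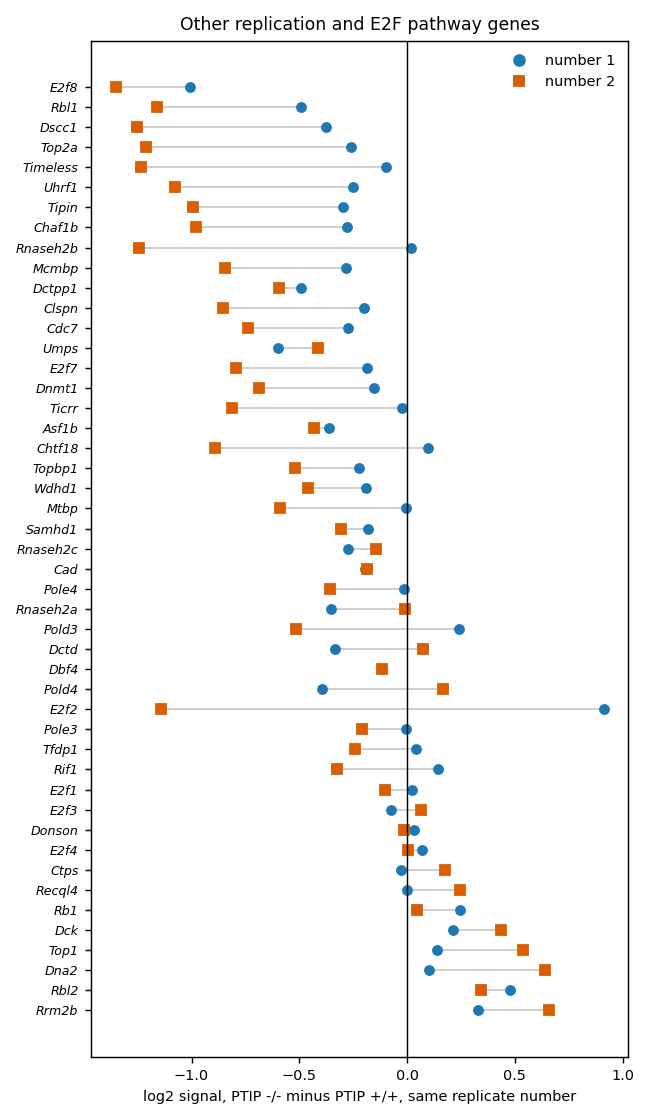
Log2 signal of PTIP -/- minus PTIP +/+ for 47 further replication and E2F pathway genes, sorted by the mean of both numbers, with a circle for number 1 and a square for number 2. E2f8 at the top is below -1 in both numbers (2.01-fold and 2.55-fold lower), and Rrm2b at the bottom is above 0 in both.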

How the data were processed

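Total RNA from 4 fibroblast samples was measured on Affymetrix arrays. The deposited values are linear array intensities for 45101 probe sets. The submitters' processing notes name RMA without a version, but the deposited intensities are linear and differ in their quantiles, and their mean after trimming 2% at each end was 500.003 on every array, so each array looks scaled to a common mean; no source here gives the background step. Array medians ran from 75.8 to 97.8, with 34.1% to 40.6% of probe sets under the filter level. The number of arrays limits the precision.

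A single 0 was set to 0.1 and intensities were taken to log2. After dropping 64 control probe sets, 34945 carried 1 gene symbol, 932 several and 9160 none; symbols of 34741 were updated through the RefSeq gene table of GRCm38.p6. Each gene was represented by its brightest probe set and tested where its geometric mean signal reached the 40th percentile of all probe sets, 47.68. There are no detection calls here, so this level also served as the lowest readable signal. The genotypes were compared with limma 3.58.1 (R 4.3.3; lmFit, eBayes, no covariate, 2 residual degrees of freedom), with Benjamini-Hochberg adjustment over all genes tested at 0.05. SE is that of the moderated fit. The fit was tested on simulated data with larger changes than those of the members, independent noise and no shift between replicate numbers. That run checked the code and says nothing on the power of the fit for these data.

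The member list, the groups by role and the second gene list were chosen with earlier results of these data known. Every member could be named, and the largest, smallest and oppositely moving members of each group, with Pcna, are given array by array, as are the 4 farthest genes of the second list. Timeless, Tipin, Chaf1b, Dbf4, Rif1, Donson, Rrm2b, Rb1, Rbl2, E2f1, E2f2, E2f3 and E2f7 were picked with their values in view. So were the further members given array by array. As alternatives there were quantile normalization, median centring, no filter or one at the 60th percentile, averaging all probe sets of a gene, low signals raised to the filter level, a variance trend with robust moderation, the replicate number as a block and each array left out.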

Additional observations from a re-analysis of the deposited data

How the results depend on the processing

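With 2 arrays a genotype and 2 residual degrees of freedom, limma called 0 genes under any of the 12 alternatives, and the median and count over all members kept their direction. With the replicate number as a block, 0 genes passed (lowest limma adjusted p 0.601), and the members' median was again -0.42. At an unadjusted p under 0.05 that fit gave 982 of 12509 genes and 2 of 45 members, Cdc6 and Pold2, a smaller share of the members. The labels share only a number, but same-numbered deviations correlated at 0.69 over all genes. Log2 signals correlated at 0.969 and 0.945 within numbers 1 and 2, and at 0.904 and 0.883 within PTIP -/- and PTIP +/+. The SE without a block thus holds the difference between the numbers. The members' median ranged from -0.66 to -0.19 and their count below 0 from 33 to 44 when each array was left out. Median centring moved all genes by -0.18, took the share of all genes below 0 from 43.9% to 64.5% and the members' median to -0.60. Centring shifts all genes of an array alike, so the members' median less that of all genes cannot differ with it: it is -0.23 for number 1 and -0.73 for number 2. Of 120 medians of the 10 groups under the alternatives, 118 were below 0; that of polymerase alpha and primase was 0.054 averaging all probe sets and 0.23 without PTIP -/- replicate 2. Single members that crossed 0 were Orc4 with centring (-0.026) and, averaging all probe sets, dim ones included, Cdc45 (1.13), Pola1 (0.16), Pola2 (0.84), Prim2 (-0.051) and Pole2 (0.059). Leaving out each array gave ranges across 0 for Mcm2 (-0.38 to 0.21), Gins2 (-0.33 to 0.26), Cdc45 (-0.66 to 0.031), Cdt1 (-0.89 to 0.040), Orc1 (-0.75 to 0.17), Pola1 (-1.18 to 0.33), Pola2 (-0.47 to 0.095), Prim1 (-0.89 to 0.12), Prim2 (-0.39 to 0.94), Rfc1 (-0.44 to 0.14) and Rfc2 (-0.22 to 0.071). The cause was not tested.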
